A study of Mus musculus with 6 samples.

Results

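The genes described here are 38 mouse genes of glucose uptake, glycolysis and pyruvate handling, out of 22367 protein-coding genes in the annotation. They were taken by name from a fixed list: 4 groups cover glucose and lactate transport, the enzymes from hexokinase to lactate dehydrogenase, the kinases that adjust phosphofructokinase, and the pyruvate dehydrogenase complex with its kinases. The list rests on the roles of the genes and not on a cut-off in these data. For this report 29 were classed from textbook knowledge as broadly expressed and 9 as restricted to certain tissues. That split was written with earlier results of these data known. The broad class holds Pfkm, Pfkfb2 and Ldhb, which are named below after muscle or heart. Open chromatin was mapped with ATAC-seq, an assay whose transposase, Tn5, inserts adapters where DNA is exposed, and each cell state is represented by 1 list of peaks, the intervals where inserted fragments pile up. A start peak is a peak that lies at least partly within 1000 bp of an annotated transcript start of a gene, and a body peak lies in the gene and entirely farther than that from every start.

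The cells were J1 embryonic stem cells (ESCs), of the 129SV strain, and 2 kinds of expanded potential stem cells (EPSCs), all without a genetic change named in the labels. ESCs grew in serum medium with LIF and the inhibitors CHIR99021 and PD0325901, on mouse fibroblast feeders or gelatin. D-EPSCs, the state of the Deng protocol, grew in N2B27 medium with serum replacement, LIF, CHIR99021, dimethindene maleate and minocycline hydrochloride. L-EPSCs, the state of the Liu protocol, grew in serum replacement medium with LIF, CHIR99021, PD0325901, A-419259, XAV939, JNK inhibitor VIII and SB203580. LIF and CHIR99021 were common to the 3 states, and age does not apply to these lines. All states derive from a single line, and base medium, inhibitors and state cannot be told apart.

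On chromosomes 1 to 19, X and Y the lists held 28965 peaks for ESCs, 50225 for D-EPSCs and 46601 for L-EPSCs. Each list stands for 2 technical replicates and holds positions only, so no value has a replicate error, no test was possible, and the sequencing depth is unknown. Start peaks were present at 8 of 10 pluripotent cell markers in the ESC list and at 10 of 10 in both EPSC lists. Nanog and Tdgf1 were the markers without one in ESCs. Fibroblast feeder markers, such as the collagen gene Col1a1, had a start peak at 2 of 10 genes in ESCs, against 8 for D-EPSCs and 3 for L-EPSCs. Of all protein-coding genes, 52.3%, 64.2% and 61.5% had a start peak in the ESC, D-EPSC and L-EPSC lists. Per the study's methods, both EPSC lines were taken off feeders for several passages before this assay. The share of feeder cells was not measured, and its part in the differences below was not tested.

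Glycolysis splits glucose into pyruvate in the cytoplasm. Hexokinase traps glucose, phosphofructokinase commits it, and pyruvate kinase makes the final ATP of the path. Lactate dehydrogenase then turns pyruvate into lactate for export, while pyruvate dehydrogenase sends it into the citric acid cycle as acetyl-CoA, a step that pyruvate dehydrogenase kinases switch off. Pluripotent cells are known for rapid glycolysis, and many of these genes have isozymes that other tissues such as muscle, liver or brain use instead.

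Most of these genes had a start peak in every state. A start peak was listed for 34 of the 38 genes in ESCs, against 52.3% of all protein-coding genes. In D-EPSCs the count was 35 of 38, against 64.2%, and in L-EPSCs it was 36 of 38, against 61.5%. The same 34 genes had one in all 3 lists, which 51.2% of all genes had. These genes had a median of 5 annotated starts each, against 2 over all genes, so more windows could catch a peak. Shares counted per start, given below, were closer to those of all genes. All 29 genes classed as broadly expressed had one in each list, but that class was set with earlier results known. Of the 9 tissue-restricted isozymes, 5 had one in ESCs, against 6 for D-EPSCs and 7 for L-EPSCs.

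Presence differed between lists for 2 genes only, both tissue-restricted. Eno2, the neuronal enolase, had start peaks in the D-EPSC and L-EPSC lists but not in ESCs, a pattern of 9.09% of all genes. Hk3, a hexokinase of blood cells, had one in L-EPSCs only, a pattern of 0.908% of all genes. The muscle isozymes Pgam2 and Eno3 had none in any list, like 34.4% of all genes. For Pgam2 the nearest peak lay 14879 bp from the start in ESCs, 5842 bp away for D-EPSCs and 1174 bp away for L-EPSCs. For Eno3 the distances were 9664 bp, 1833 bp and 1171 bp, so both genes missed the window by less than 200 bp in L-EPSCs.

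The Hk3 difference depended on the width of the window. The L-EPSC peak of 506 bp (chr13:55123615-55124120, upstream of the gene) lay 869 bp from the start, just inside 1 kb. An ESC peak overlapping it lay 1069 bp away, just outside, and the nearest D-EPSC peak was at 8326 bp. Hk3 therefore had a peak at nearly the same place in ESCs and L-EPSCs.

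The 12 sequences that bear on these comparisons were read from the NCBIM37 genome, the mm9 assembly of the peak lists, and 8 of them are shown, picked with their values known for the genes that the results turn on. All are 200 bases long, run 5′ to 3′ on the strand of the gene, and overlap no annotated exon. Capitals mark plain letter matches on either strand to any of 6 motifs. The hypoxia response element core was searched as ACGTG. The E-box was searched as CACGTG, and every such match therefore also holds the hypoxia core. The site of the nuclear receptor Esrrb was searched as AAGGTCA. The Stat3 site was searched as TTCCNGGAA, where N is any base. The GC box of Sp1-type factors was searched as GGGCGG, and the TATA box was searched as TATAAA. The first 4 show regions found in EPSC lists and not in ESCs.

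Hk2 intron, chr6:82713993-82714192, minus strand, D-EPSC peak: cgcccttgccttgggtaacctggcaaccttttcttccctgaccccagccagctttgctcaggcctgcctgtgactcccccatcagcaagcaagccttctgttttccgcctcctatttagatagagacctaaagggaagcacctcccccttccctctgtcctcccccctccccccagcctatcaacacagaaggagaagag
Hk2 intron, chr6:82705405-82705604, minus strand, L-EPSC peak: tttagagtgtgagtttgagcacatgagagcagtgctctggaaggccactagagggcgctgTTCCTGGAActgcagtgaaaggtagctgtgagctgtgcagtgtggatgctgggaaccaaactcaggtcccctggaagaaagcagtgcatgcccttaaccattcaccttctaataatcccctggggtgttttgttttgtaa
Eno2 intron near its start, chr6:124718897-124719096, minus strand, L-EPSC peak: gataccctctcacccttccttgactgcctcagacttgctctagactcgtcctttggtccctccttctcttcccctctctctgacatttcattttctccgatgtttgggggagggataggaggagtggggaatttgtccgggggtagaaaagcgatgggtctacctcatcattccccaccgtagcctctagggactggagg
Slc2a3 intron, chr6:122736183-122736382, minus strand, under a D-EPSC peak throughout and an L-EPSC peak over 15 bases: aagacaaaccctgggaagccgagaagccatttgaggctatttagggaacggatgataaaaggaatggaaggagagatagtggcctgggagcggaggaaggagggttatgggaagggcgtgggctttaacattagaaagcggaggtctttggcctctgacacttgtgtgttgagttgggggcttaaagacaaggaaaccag

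The other 4 are the bases just upstream of starts of Hk2, Pkm2, Slc2a3 and Ldhb, whose peaks differed in width between lists, and they were picked after their values were seen.

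Hk2, chr6:82724449-82724648, minus strand, under a peak in all 3 lists: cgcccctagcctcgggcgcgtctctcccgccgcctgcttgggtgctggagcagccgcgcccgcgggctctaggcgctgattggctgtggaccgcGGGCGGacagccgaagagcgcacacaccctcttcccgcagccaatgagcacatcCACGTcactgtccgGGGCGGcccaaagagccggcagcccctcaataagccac
Pkm2, chr9:59504183-59504382, plus strand, under a peak over 139 bases in ESCs and throughout in both EPSCs: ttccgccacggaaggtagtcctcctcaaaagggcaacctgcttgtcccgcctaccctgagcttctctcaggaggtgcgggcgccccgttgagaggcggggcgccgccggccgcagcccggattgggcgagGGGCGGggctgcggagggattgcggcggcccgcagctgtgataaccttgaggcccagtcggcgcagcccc
Slc2a3 internal start, chr6:122692939-122693138, minus strand, under a peak in D-EPSCs alone: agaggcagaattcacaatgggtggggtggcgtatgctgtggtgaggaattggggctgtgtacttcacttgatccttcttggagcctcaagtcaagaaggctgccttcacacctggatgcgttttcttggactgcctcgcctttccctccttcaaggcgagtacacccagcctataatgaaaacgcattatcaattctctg
Ldhb, chr6:142456478-142456677, minus strand, under a peak in all 3 lists: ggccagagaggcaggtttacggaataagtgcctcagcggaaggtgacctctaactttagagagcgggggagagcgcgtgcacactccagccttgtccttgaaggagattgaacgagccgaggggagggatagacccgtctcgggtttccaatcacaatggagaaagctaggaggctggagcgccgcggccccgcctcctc

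The printed L-EPSC window of Hk2 held a Stat3 letter match. A second intron window of Hk2 under an L-EPSC peak (chr6:82710944-82711143, not printed) and the D-EPSC window held none of the 6 motifs. Upstream of the Hk2 start stood 2 GC boxes and 1 hypoxia response element core. The Pkm2 window held a GC box, and the Slc2a3 and Ldhb windows held no match. Such matches describe letters and not bound factors.

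**Figure D1:**
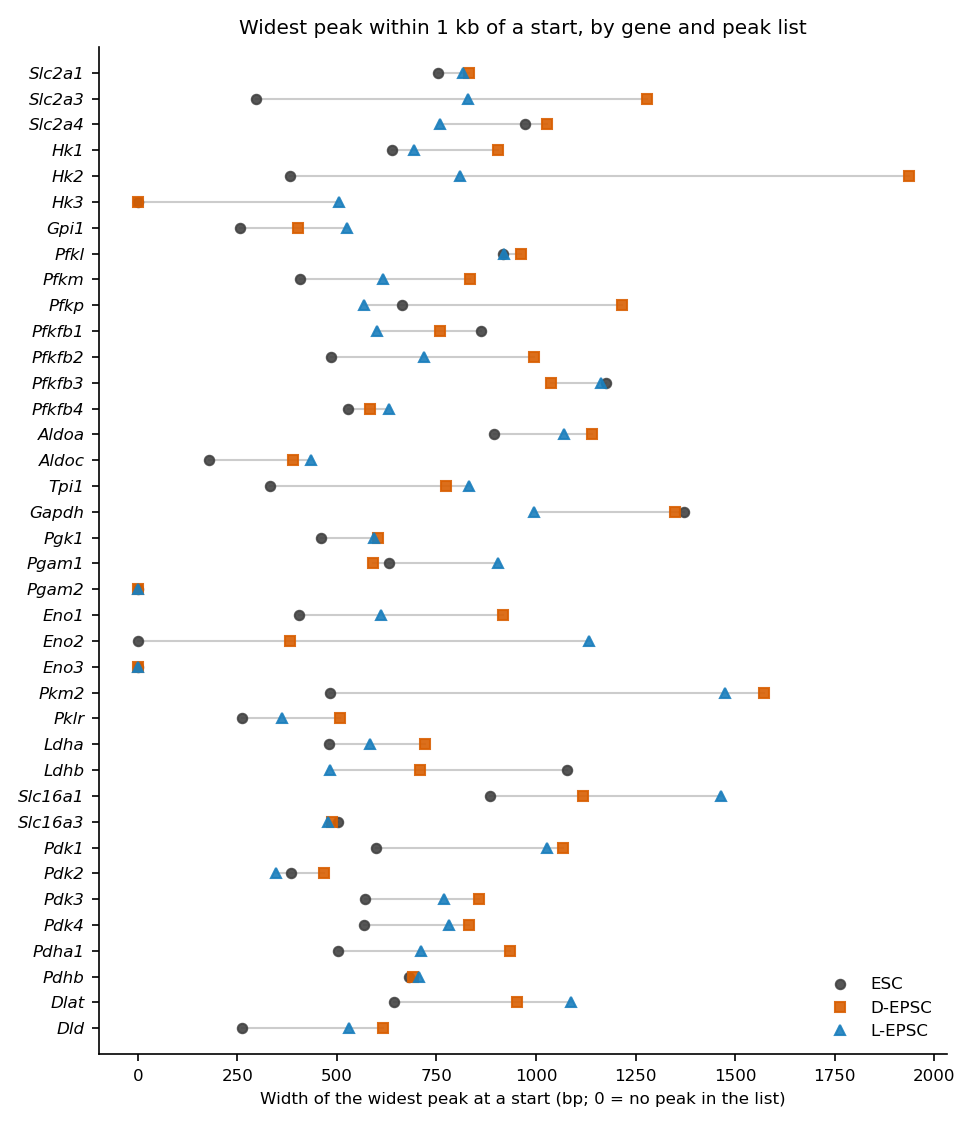
Width in bp of the widest start peak (x axis) of each of the 38 genes (rows) in the ESC, D-EPSC and L-EPSC lists (circles, squares and triangles); 0 means that the list has no start peak, and each point is 1 list with no replicate error. Hk2 spans 382 bp to 1936 bp, and Ldhb is one of the few genes widest in ESCs.

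Start peaks were wider in the EPSC lists for most of these genes, about as they were across the genome. The median widest start peak was 548 bp over 34 genes in ESCs, 835 bp over 35 genes in D-EPSCs and 716 bp over 36 genes in L-EPSCs. Over all protein-coding genes the medians were 541 bp, 742 bp and 691 bp. Width ratios over all genes, here and below, count only genes with a start peak in both lists compared. Against ESCs these were 11582 genes for D-EPSCs and 11522 for L-EPSCs. Among the 34 members with a start peak in both lists, 28 were wider in D-EPSCs than in ESCs and 6 narrower, and 82.7% of all such genes were wider. The median ratio was 1.47-fold (log2 0.56), against 1.36-fold (log2 0.44) over all genes. At least a doubling was seen at 9 of the 34, against 22.7% of all such genes. In L-EPSCs 26 of 34 were wider and 8 narrower, against 77.2% of all such genes wider, and the median ratio was 1.36-fold (log2 0.44) against 1.27-fold (log2 0.35). At least a doubling was seen at 7 of the 34, against 18.5% of all such genes. Between the EPSC lists, 10 of 35 genes were wider in L-EPSCs and 25 narrower (median log2 -0.09, against -0.07 over all genes). With the widths of all start peaks of a gene summed, 29 of 34 genes were wider in each EPSC list. The direction then turned for Gapdh and Slc16a3 in both, for Pdk2 in D-EPSCs and for Slc2a4 in L-EPSCs. Counted as bases of the windows under a peak, 29 of 34 were again wider in each, and Pfkp turned in place of Gapdh in L-EPSCs. Width shows how far a pile-up passed the caller's threshold and not how high it was.

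**Figure D2:**
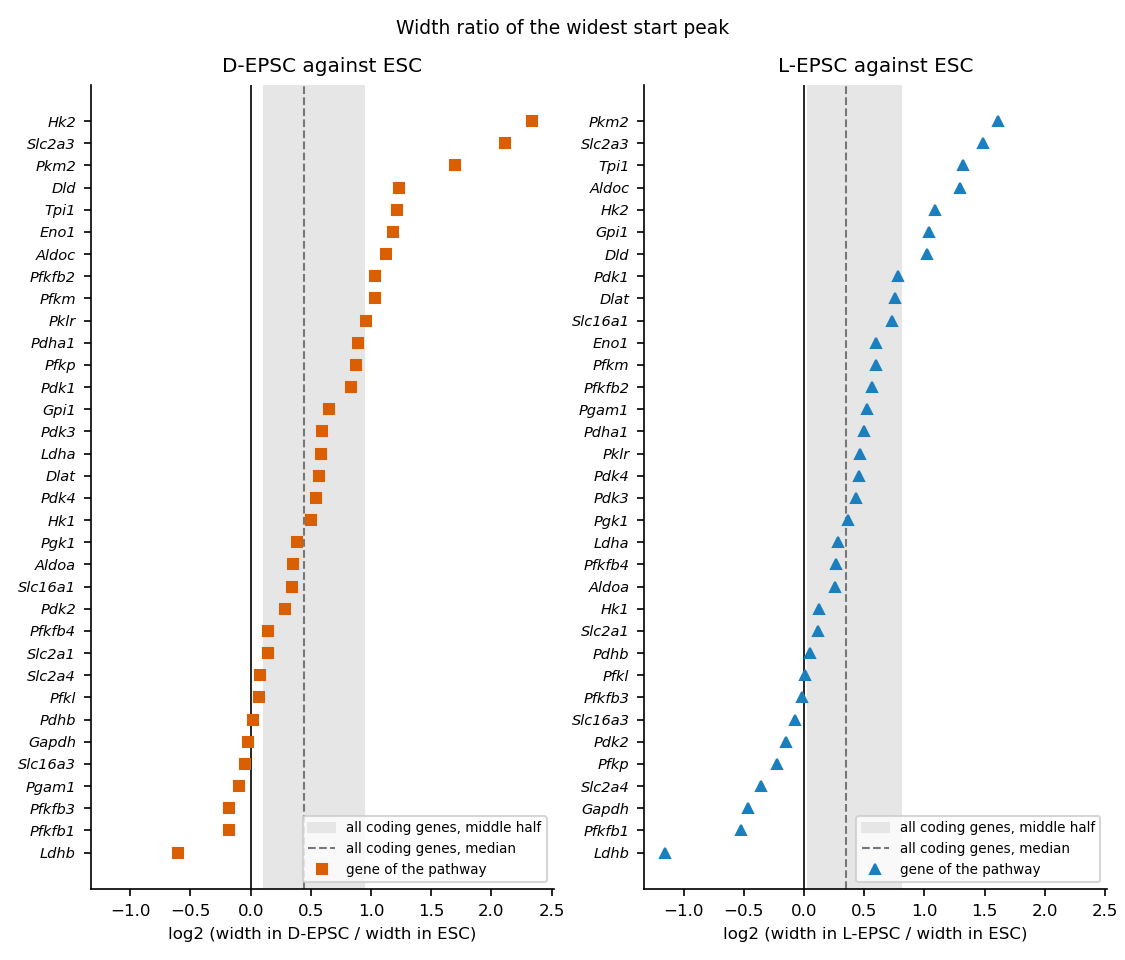
The log2 ratio of the widest start peak's width in D-EPSCs (left) or L-EPSCs (right) to that in ESCs (x axis) for the 34 genes with a start peak in both lists (rows, sorted). The grey band is the middle 50% and the dashed line the median of all protein-coding genes with a start peak in both lists. Hk2 and Slc2a3 lead on the left, Pkm2 leads on the right, and Ldhb is lowest in both.

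Of the glucose transporters, Slc2a1 (GLUT1) had a start peak of 753 bp in ESCs, one of 831 bp in D-EPSCs and one of 816 bp in L-EPSCs. Slc2a4 (GLUT4), the insulin-regulated carrier of muscle and fat, had 972 bp, 1028 bp and 759 bp. These widths stayed within a narrow range. Slc2a3 (GLUT3, chr6:122677827-122751658, minus strand), a high-affinity carrier, had 296 bp, 1278 bp and 829 bp, but these peaks stood at different starts. Its ESC peak of 296 bp lay at a noncoding start 21683 bp inside the gene, where neither EPSC list had a peak. At the 5′ end of the gene, D-EPSCs had a peak of 846 bp and L-EPSCs one of 829 bp, and ESCs had none. At the coding start 58720 bp inside the gene, the 3 lists had widest peaks of 168 bp, 1278 bp and 367 bp. ESCs and EPSCs therefore shared 1 marked start of Slc2a3 and differed at the others.

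Among the hexokinases, Hk2 (chr6:82675019-82724448, minus strand), the inducible form that can bind mitochondria, had a start peak of 382 bp in ESCs, one of 1936 bp in D-EPSCs and a widest one of 810 bp in L-EPSCs. The ESC peak (chr6:82724384-82724765) sat on the upstream side of the first start. The D-EPSC peak (chr6:82722879-82724814) covered the same place and ran on into the gene. L-EPSCs had a pair of peaks, of 666 bp upstream and 810 bp inside the gene, that together spanned the ground of the D-EPSC peak with a gap. The D-EPSC to ESC ratio was 5.07-fold (log2 2.34), and 2.11% of the 11582 genes with a start peak in both lists had a larger one. The L-EPSC to ESC ratio was 2.12-fold (log2 1.08), with 16.1% of the 11522 such genes larger. It rose to log2 1.95 when the widths of both L-EPSC peaks were summed. Hk1, the housekeeping form, had 8 groups of starts and a peak at 1 of them in every list, 39366 bp inside the gene, of 639 bp, 905 bp and 695 bp.

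Gpi1, which converts glucose 6-phosphate to fructose 6-phosphate, had start peaks of 256 bp, 402 bp and 525 bp in the same order of lists, which is kept below. Of the phosphofructokinases, Pfkl (liver type) had 918 bp, 963 bp and 921 bp. Pfkp (platelet type) had 663 bp, 1215 bp and 567 bp, but the ESC peak of 663 bp stood inside an intron (chr13:6646370-6647032). D-EPSC and L-EPSC peaks of 267 bp and 416 bp overlapped it and counted as body peaks. Over the first start itself the ESC peak had 320 bp, so that both EPSC peaks there were wider. Pfkm (muscle type, chr15:97923020-97962878, plus strand) had 408 bp, 835 bp and 616 bp at its first start, which lies within 1 kb of a start of Senp1, so these peaks cannot be assigned to Pfkm alone. At the second start of Pfkm, 15882 bp downstream, D-EPSCs had a peak of 641 bp and L-EPSCs one of 446 bp, and ESCs had none.

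The Pfkfb enzymes make or remove fructose 2,6-bisphosphate, the main activator of phosphofructokinase. Pfkfb3 had 1176 bp, 1037 bp and 1164 bp, among the widest start peaks of the set in ESCs. Pfkfb4 had 527 bp, 583 bp and 632 bp. Pfkfb1, the liver and muscle form, had 863 bp, 760 bp and 601 bp and was narrower in both EPSC lists. Pfkfb2, the heart form, had 486 bp, 995 bp and 720 bp. In all 3 lists the start peak of Pfkfb1 lay within 1 kb of a start of Apex2. For Pfkfb2, the D-EPSC start peak and the body peaks of all lists lay within 1 kb of a start of Yod1.

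In the middle of the pathway, Aldoa had 895 bp, 1141 bp and 1070 bp, and the brain aldolase Aldoc 178 bp, 389 bp and 436 bp. Tpi1, the triose phosphate isomerase, had 332 bp, 773 bp and 831 bp. Its log2 ratio to ESCs was 1.22 for D-EPSCs and 1.32 for L-EPSCs. Gapdh had 1371 bp, 1348 bp and 995 bp, the widest start peak of the set in ESCs. Pgk1, which makes the first ATP of the path, had 461 bp, 603 bp and 594 bp, and Pgam1 had 630 bp, 590 bp and 904 bp. The Gapdh value for L-EPSCs belongs to a noncoding start group near the 3′ end of the gene, where the lists had 637 bp, 939 bp and 995 bp. At the main Gapdh start the widest peaks were 1371 bp, 1348 bp and 931 bp. Summed over all its start peaks, Gapdh had 2008 bp, 2590 bp and 2080 bp, which turns the direction in both EPSC lists. Counted as bases of the windows under a peak, it had 1585 bp, 1933 bp and 1372 bp, which turns it in D-EPSCs only. Both aldolases and Tpi1 were wider in both EPSC lists.

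The enolases split by tissue. Eno1, the ubiquitous form, had start peaks of 404 bp, 917 bp and 611 bp, and a small peak of 156 bp for D-EPSCs and 142 bp for L-EPSCs stood at a noncoding start group 9676 bp downstream, absent from ESCs. Eno2 (chr6:124710071-124719691, minus strand) had none in ESCs, where the nearest peak was 3794 bp from a start. D-EPSCs had a pair of peaks of 382 bp and 376 bp there, and L-EPSCs had a single peak of 1132 bp that covered the first of these and the space up to the second. The printed Eno2 window lies in that space, under a peak in L-EPSCs alone.

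Pkm2 (chr9:59504383-59527182, plus strand; the older symbol of Pkm), the pyruvate kinase of proliferating cells and muscle, had a start peak of 484 bp in ESCs, one of 1572 bp in D-EPSCs and one of 1475 bp in L-EPSCs. The ESC peak ended 62 bp upstream of the start. Both EPSC peaks began at nearly the same place and extended into the gene. The ratios were 3.25-fold (log2 1.70) and 3.05-fold (log2 1.61). Of all genes with a start peak in both lists compared, 7.60% and 6.66% had larger ones. Pklr, the liver and red cell form, had 262 bp, 508 bp and 362 bp.

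Of the lactate dehydrogenase genes, Ldhb narrowed, while Ldha widened about as genes did across the genome. The log2 ratios of Ldha were 0.58 in D-EPSCs and 0.28 in L-EPSCs, beside medians of 0.44 and 0.35 over all genes. Ldha, which favours lactate production, had 481 bp, 721 bp and 583 bp at its internal starts, and no peak at its outermost start in any list. At a further internal start of Ldha, D-EPSCs had a peak of 364 bp and L-EPSCs one of 245 bp, and ESCs had none. Ldhb (chr6:142438769-142456477, minus strand), the heart form, had 1078 bp, 710 bp and 484 bp. The Ldhb peak was narrower in both EPSC lists, at 0.659-fold and 0.449-fold of ESCs, and it was the only gene of the set at or below a halving in L-EPSCs. Of all genes with a start peak in both lists compared, 97.3% had a larger ratio in D-EPSCs and 98.9% in L-EPSCs. The upstream edge of the peak moved by under 20 bp between lists, and the side inside the gene shortened. Of the lactate exporters, Slc16a1 (MCT1) had 884 bp, 1119 bp and 1464 bp, and Slc16a3 (MCT4) had 504 bp, 487 bp and 478 bp. At the 5′ starts of Slc16a3, D-EPSCs had a further peak of 284 bp and L-EPSCs one of 132 bp, and ESCs had none.

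Among the pyruvate dehydrogenase kinases, Pdk1 had 598 bp, 1069 bp and 1029 bp. Pdk3 had 570 bp, 858 bp and 768 bp, and the fasting-induced Pdk4 had 569 bp, 831 bp and 781 bp. These 3 were wider in both EPSC lists. Pdk2 had 385 bp, 469 bp and 347 bp. Of the complex itself, Pdha1 had 503 bp, 935 bp and 712 bp, and Pdhb had 682 bp, 692 bp and 706 bp. Dlat, the acetyltransferase, had 643 bp, 952 bp and 1088 bp. Dld, the dihydrolipoamide dehydrogenase, had 262 bp, 617 bp and 531 bp, a ratio of 2.36-fold in D-EPSCs and 2.03-fold in L-EPSCs.

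Of the 213 annotated starts of these genes, 110 lay within 1 kb of a peak in ESCs, against 136 for D-EPSCs and 140 for L-EPSCs. These are 51.6%, 63.8% and 65.7%, beside 45.2%, 56.5% and 54.3% of the starts of all protein-coding genes. Starts with overlapping windows formed 83 groups, and 37 groups had a peak in ESCs, against 40 for D-EPSCs and 41 for L-EPSCs. These are 44.6%, 48.2% and 49.4%, beside 33.5%, 43.3% and 41.2% of all groups. A further 41 groups had none in any list, like 54.6% of all groups. Both EPSC lists and not ESCs marked 4 groups, in Slc2a3, Pfkm, Eno1 and Eno2, a pattern of 7.03% of all groups. Counted instead as start peaks merged over the lists, 6 regions had this pattern, and their share over all genes was not computed. The regions added are in Ldha and Slc16a3, where an ESC peak stood at another start of the same group. ESCs alone marked 1, in Slc2a3, and L-EPSCs alone marked 1, in Hk3, patterns of 0.368% and 1.45% of all groups. Of the 23 genes with more than 1 group, 18 had a peak at 1 of them or none in every list.

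Inside the genes, the EPSC lists held more peaks. The 38 genes had 8 body peaks in ESCs, against 19 for D-EPSCs and 26 for L-EPSCs, which is 0.821, 1.95 and 2.67 per 100 kb, against 0.802, 1.66 and 1.55 over all genes. At least 1 body peak was found in 6 genes in ESCs, 13 genes in D-EPSCs and 15 genes in L-EPSCs, against 21.4%, 32.7% and 31.4% of all genes. With each list cut to its widest 28965 peaks, the body peaks came to 8, 10 and 12. That limit removed D-EPSC peaks under 309 bp and L-EPSC peaks under 279 bp. With peaks of at least 300 bp the counts were 6, 11 and 8, so that L-EPSCs no longer exceeded D-EPSCs. With lists of equal length the values per 100 kb were 0.821, 1.03 and 1.23, against 0.802, 0.742 and 0.782 over all genes. The counts of the 38 genes with a start peak (34, 35 and 36) were the same with lists of equal length, while the shares of all protein-coding genes came to 52.3%, 59.4% and 57.0%.

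Slc2a3 held the most body peaks, with 3 in ESCs, 5 for D-EPSCs and 6 for L-EPSCs. Hk2 had none in ESCs, 1 for D-EPSCs and 3 for L-EPSCs, and the D-EPSC and L-EPSC peaks did not overlap. Hk1 and Pfkp each had 1, 1 and 2, Hk3 had 0, 1 and 2, Slc16a1 had 1, 2 and 1, and Pkm2 had 0, 2 and 2. One D-EPSC peak counted for Pkm2, of 1410 bp at its 3′ end, lies at a start of the neighbouring gene Gramd2. All other body peaks lay in 9 genes with at most 1 in any list. The remaining 22 genes had none.

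**Figure D3:**
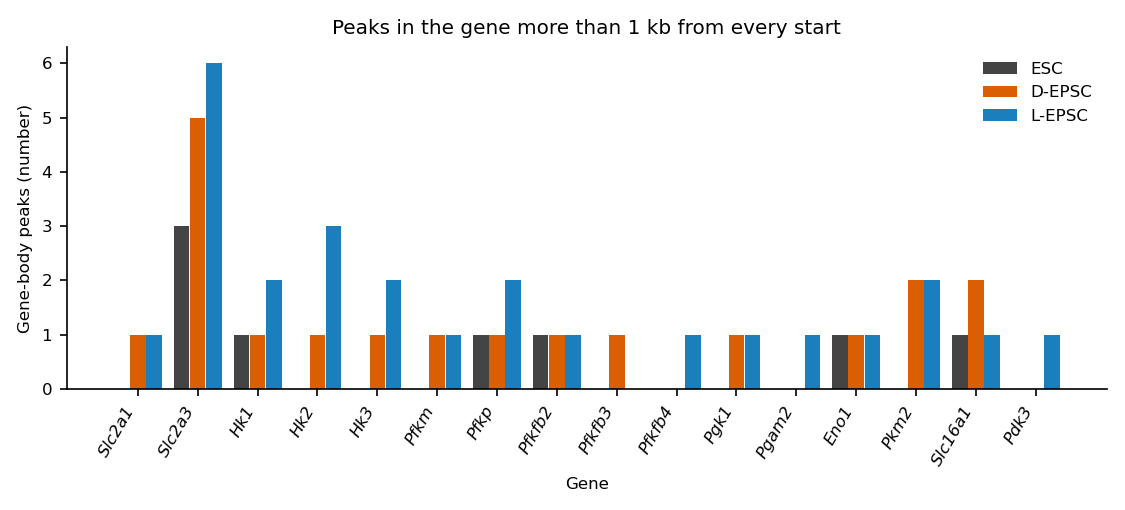
Number of body peaks (y axis), more than 1 kb from every annotated start, in the 16 genes with any (x axis), for each list. Slc2a3 has 3, 5 and 6, and most other genes have 1 or 2.

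Merged over the lists, the body peaks formed 32 regions in 16 genes. Left out of these are the D-EPSC and L-EPSC body peaks of Pfkp of 267 bp and 416 bp, which overlap an ESC start peak. No region was found in ESCs alone, against 6.23% of the 24240 body regions of all protein-coding genes. All 3 lists shared 5 of the 32 regions, against 20.9% of all body regions. ESCs and L-EPSCs shared 4, against 3.66%, and both EPSC lists without ESCs shared 7, against 19.1%. D-EPSCs alone had 6, against 26.8%, and L-EPSCs alone had 10, against 20.9%. The widest shared by both EPSC lists had their midpoints in introns of Hk1 (chr10:61745509-61746329), Slc2a3 (chr6:122736025-122736541), Hk3 (chr13:55113508-55113939, which also touches an exon), Slc2a3 again (chr6:122734940-122735305) and Slc2a1 (chr4:118793843-118794145). In D-EPSCs only, the widest were an exon of Slc2a3 (599 bp) and introns of Pfkm (475 bp), Hk2 (257 bp), Pfkfb3 (234 bp) and Slc16a1 (183 bp). In L-EPSCs only, the widest were introns of Pgam2 (357 bp), Slc2a3 (286 bp), Hk2 (223 bp), Pdk3 (192 bp) and Pkm2 (178 bp, which also touches an exon). The median width was 246 bp for the regions of D-EPSCs only and 176 bp for those of L-EPSCs only. Of the 5 regions shared by all lists, those of Pkm2 and Pfkfb2 lay at starts of Gramd2 and Yod1, and the Pkm2 one was touched by ESC and L-EPSC peaks that did not reach the gene.

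The promoters, taken as 250 bases before and 50 after the 5′ end of each gene, were read for the same letters. The 5′ end is the outermost start, which was not always the marked one. Hk1, Ldha and Pfkfb2 had no peak within 1 kb of it in any list, and Slc2a3 and Slc16a3 had none in ESCs. The hypoxia response element core ACGTG, the sequence that HIF proteins bind at many glycolytic genes, stood in 14 of 38 promoters (36.8%), against 20.7% of all protein-coding genes and 26.3% of those with a start peak in all 3 lists. It was found in 13 of the 29 broadly expressed genes, among them Slc2a1, Slc2a3, Hk2, Gpi1, Gapdh, Pgk1 and Pgam1, and in 1 of 9 tissue-restricted genes, Hk3. The GC box stood in 19 of 38 (50.0%), against 43.4% of all genes and 64.8% of those with a start peak in all 3 lists. TATAAA stood in 3 of 38 (7.89%), against 13.4% and 6.62%. The E-box stood in 4 (10.5%), against 7.78% of all genes and 10.1% of those with a start peak in all 3 lists. The Esrrb site stood in 1 (2.63%), against 3.92% of all genes, and the Stat3 site in none, against 1.15%. These last 3 shares were near the background.

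Read in 300 bases at the centre of each start peak instead, ACGTG stood in 16 of 39 peaks in ESCs (41.0%), 20 of 44 in D-EPSCs (45.5%) and 26 of 48 in L-EPSCs (54.2%). Over the start peaks of all genes the shares were 25.5%, 23.8% and 23.7%. The GC box stood in 56.4%, 54.5% and 58.3% of the peaks, below the 66.0%, 62.7% and 63.8% over all genes. TATAAA stood in 6 of 39 ESC peaks (15.4%), 2 of 44 D-EPSC peaks (4.55%) and 4 of 48 L-EPSC peaks (8.33%). Beside the 3.46%, 3.43% and 3.50% over all genes, the D-EPSC share was near the background and the others were higher. These counts are small. In the promoters its share was below that of all genes and slightly above that of genes with a start peak in all 3 lists. The median CpG observed over expected ratio of the promoters was 0.720 in the broadly expressed genes, 0.287 in the tissue-restricted ones and 0.534 in all genes. Genes with a start peak in all 3 lists, as all the broadly expressed ones are, had a median of 0.764. Promoters of genes with no start peak in any list had a median of 0.175, and those of Pgam2 and Eno3 had 0.0883 and 0.134.

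Start peaks of neighbouring pathways are set beside the 52.3%, 64.2% and 61.5% of all genes, which were also higher in both EPSC lists. They were found at 16 of 17 citric acid cycle genes in ESCs and at all 17 in both EPSC lists, with Dlst, a subunit of the oxoglutarate dehydrogenase complex, missing in ESCs. In the pentose phosphate pathway the counts were 6, 7 and 7 of 7, with G6pdx, the first enzyme of the path, missing in ESCs. Among transcription factors and oxygen sensors of glycolysis they were 9, 11 and 11 of 11, with Mycn and Mlx missing in ESCs. Gluconeogenesis, a liver and kidney path, had 2, 4 and 4 of 7, with peaks at Fbp1 and G6pc3 in EPSC lists only. A further list of glycolysis and pyruvate genes, rich in testis and liver isozymes, had 8, 9 and 9 of 16 (50.0%, 56.3% and 56.3%), below the shares of all genes in each list, with Hkdc1 in EPSC lists only.

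**Figure D4:**
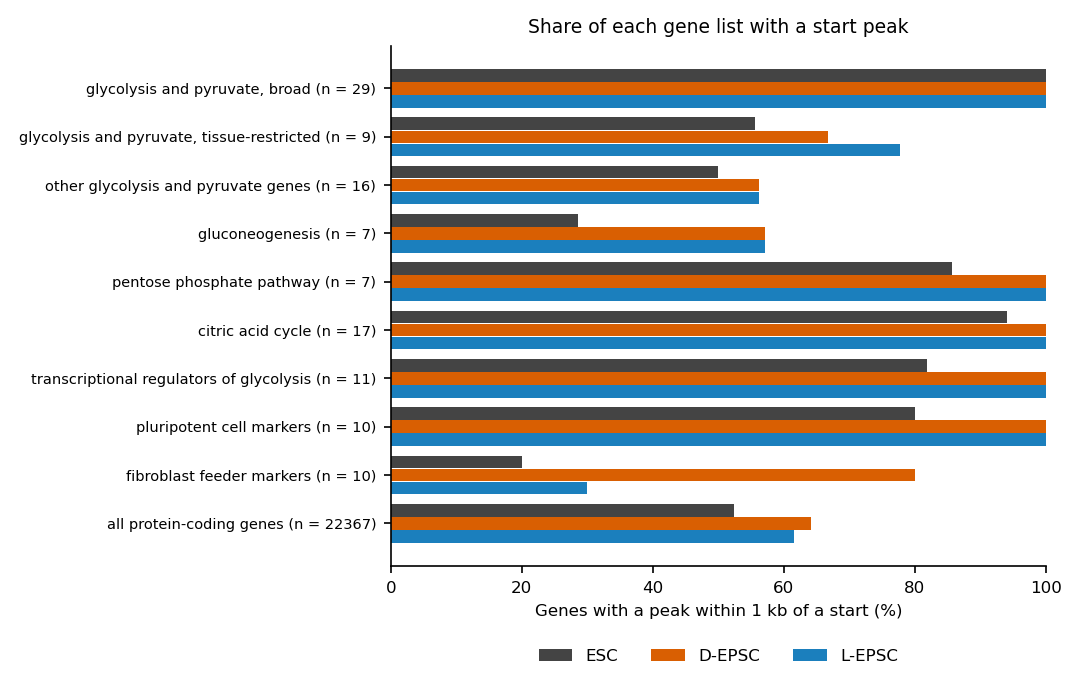
Percentage of genes with a peak within 1 kb of a start (x axis) in each gene list (rows, with the number of genes) with 1 bar for each of the 3 peak lists. The broadly expressed genes are at the full length in each list, and the feeder markers stand at 2, 8 and 3 of 10.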

How the data were processed

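ATAC-seq libraries of ESCs, D-EPSCs and L-EPSCs, 2 technical replicates each, were aligned by the authors to mm9 with Bowtie2 2.3.5, filtered with SAMtools 1.10 and called for peaks with MACS. Adapter trimming with Trim Galore 0.6.3 is listed in the submitters' processing notes. The handling of duplicates, the Tn5 shift and the merging of replicates are not given in the sources used here, and each could move peak edges or the number of weak peaks. The deposited lists have 4 columns, the chromosome, start, end and name of each peak, so the unit used is position in bp, and no score is given.

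Peaks of chromosomes 1 to 19 and X or Y were assigned to genes of GENCODE M1 on NCBIM37 by at least 1 bp of overlap. Starts whose 1 kb windows overlapped formed a group. Pkm is listed under its older symbol Pkm2. Sequences came from that genome. Members and lists were chosen with earlier results of these data known. Genes given in full were Hk2, those whose start presence differed or was absent, the 5 largest absolute log2 width ratios of each EPSC state, and the 5 widest body regions of each class. Overlap steps were tested on simulated peaks and equalled bedtools 2.31.1 in 500 of 500 windows. Scripts used Python 3.11.15, numpy 2.4.6, pandas 2.3.3, scipy 1.17.1, pysam 0.24.0 and matplotlib 3.10.9.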

Additional observations from a re-analysis of the deposited data

How the results depend on the processing

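No paired analysis was possible because each state has a single peak list with no value per replicate, and leaving out a replicate could not be run for the same reason. Of 46 values of the main comparisons under other settings, 41 kept their direction and stayed within 1.5 times the reported count or inside the 95% order-statistic interval of the median (log2 0.15 to 0.89 for D-EPSCs and 0.12 to 0.60 for L-EPSCs). Counts of body peaks moved most. With each list limited to its widest 28965 peaks, D-EPSCs had 10 in place of 19 and L-EPSCs 12 in place of 26. With peaks of at least 300 bp, D-EPSCs had 11 and L-EPSCs 8, which ended the excess of L-EPSCs over D-EPSCs. With starts kept 2.5 kb away, ESCs had 5 in place of 8. With the outermost start of each gene alone, start peaks were listed for 29 genes in ESCs, 32 genes in D-EPSCs and 33 genes in L-EPSCs. Slc2a3 and Slc16a3 then had one in the EPSC lists only, and Hk1, Pfkfb2 and Ldha had none in any list. The share of all protein-coding genes under this setting was not computed. With peaks of at least 300 bp, Slc2a3, Gpi1, Aldoc, Pklr and Dld had one in the EPSC lists only. The causes were not tested. Of 42 values for single genes, 40 stayed within 1.5 times. Unknown depth limits every comparison, since a missing peak does not show closed chromatin.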
